A study of Canis lupus familiaris with 6 samples.

Results

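Chemokines and chemokine receptors were examined in 3 canine mammary tumor cell lines grown with or without myeloid-derived suppressor cells (MDSCs). The genes were chosen by symbol, as all non-control probes named CCL, CXCL, CX3CL1, XCL, CCR, CXCR, CX3CR1, XCR1, CCRL or DARC, which gave 47 of the 35581 gene names on the array, measured by 59 probes. Of these genes 26 encode ligands and 21 encode receptors. The lines were P114, from an anaplastic cancer, CMT-U27, from a simple carcinoma, and CMT-U309, from a spindle cell tumor. For each line, RNA of cells kept with MDSCs in transwell inserts for at least 72 h was set against RNA of monocultured cells of that line on canine Agilent 4x44K arrays. One array of each line carried the co-culture RNA in Cy5 (called here the Cy5 array) and the other carried it in Cy3 (the Cy3 array). The MDSCs had been sorted from the blood of healthy dogs by Gr1, CD11b and CD33, and no cells other than the tumor cells were meant to enter the RNA. There were 6 arrays with 12 channels. The arrays of a dye-swap hold the same pair of RNA samples and counted as 1 replicate, so n was 3 cell lines, no line had a test of its own, and the labels do not say whether a line was cultured more than once.

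Chemokines are small secreted proteins that direct the migration of cells along a gradient, and they are grouped by the spacing of their first cysteines into the CC, CXC, XC and CX3C families. They act through receptors that span the membrane and signal through heterotrimeric G proteins, while atypical receptors such as CXCR7 (now ACKR3), DARC (ACKR1) and CCRL1 (ACKR4) bind and clear ligands without that coupling. In tumors, CCL2, CCL5 and CXCL12 are known for drawing monocytes and other myeloid cells, and CXCR4 for guiding tumor cells toward tissues rich in CXCL12.

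The measurements are hybridization to probes of 60 bases. Most of the probes below are shown because some of the results on differences between the lines, on opposite ratios and on the thresholds rest on them. Those of CCL13 and CCL24 are shown for a stretch that they share with CCL4 and CCL7. Capitals mark the letters TGGGTCCAG, which 4 of the 59 probes share and which occur, on either strand, in 0.0550% of the 43603 probes on the array.
CXCR4, chr19:41893808-41893867, minus strand: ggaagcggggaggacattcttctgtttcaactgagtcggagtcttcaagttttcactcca
CCL28, chr4:69797043-69797102, plus strand: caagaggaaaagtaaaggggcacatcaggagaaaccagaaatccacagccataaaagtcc
CCL20, chr25:43508240-43508299, plus strand: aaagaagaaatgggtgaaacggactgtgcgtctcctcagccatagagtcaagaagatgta
CCL4, chr9:41001749-41001808, minus strand: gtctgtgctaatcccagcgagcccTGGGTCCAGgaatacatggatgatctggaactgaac
CCL7, chr9:42316310-42316369, minus strand: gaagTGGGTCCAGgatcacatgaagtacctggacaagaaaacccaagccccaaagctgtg
CCL13, chr9:42260703-42260762, minus strand: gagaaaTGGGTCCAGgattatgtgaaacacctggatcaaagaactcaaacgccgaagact
CCL24, chr6:10168501-10168560, minus strand: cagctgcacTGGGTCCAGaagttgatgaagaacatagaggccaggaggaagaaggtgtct
CXCL10, chr32:3563193-3563252, minus strand: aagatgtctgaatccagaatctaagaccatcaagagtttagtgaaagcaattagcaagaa
CXCL16, chr5:34816525-34816584, plus strand: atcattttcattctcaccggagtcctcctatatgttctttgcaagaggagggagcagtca
CXCR6, chr20:45564526-45564585, minus strand: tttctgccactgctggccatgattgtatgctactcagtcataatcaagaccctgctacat
CCL26, chr6:10152525-10152584, minus strand: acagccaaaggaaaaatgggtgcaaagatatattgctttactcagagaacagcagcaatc
XCL1, chr7:32953961-32954020, minus strand: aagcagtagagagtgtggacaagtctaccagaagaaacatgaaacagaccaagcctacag
The coordinates are those of the scanner output on canFam2. The stretch in capitals is carried by probes of CCL4, CCL7, CCL13 and CCL24, all CC ligands. A channel is called positive here where the scanner software flags the spot as well above background. The CCL13 probe was positive in none of the 12 channels, while those of CCL4 and CCL7 were positive in 10 and 11. The CCL24 probe shown was positive in 4 channels, and a brighter probe represents that gene in what follows.

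The members lie in clusters. On chromosome 9, CCL1, CCL13, CCL8, CCL7 and CCL2 lie within 71.5 kb, and CCL4, CCL3, CCL14, CCL16 and CCL5 within 142 kb. On chromosome 20, the receptors CCRL2, CCR2, CCR3, CCR1, XCR1, CXCR6 and CCR9 lie within 336 kb, and of these CXCR6 alone was positive in all 12 channels. Neighbours therefore did not share one state of detection. Where a gene had several probes, the brightest represents it. The second probes of CXCL10 and CXCL14 share 54 and 50 bases with the brightest one and are no separate evidence. In 5 genes (CCL2, CCL4, CCL21, CCL28 and CXCL10) 1 of the other probes, as placed in the files, reads the opposite strand of the brightest probe.

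The arrays of a dye-swap did not give the same ratios. Across probes, the log2 ratios of co-culture over monoculture on the 2 arrays had a correlation of -0.39 for P114, 0.26 for CMT-U27 and -0.09 for CMT-U309, over probes that are not independent replicates. Between 53.0% and 77.0% of probes were positive in co-culture channels and between 55.2% and 81.0% in monoculture channels. The co-culture channel had the smaller share on every array except the Cy5 array of P114 (65.4% against 55.2%). The gap was widest on the Cy3 array of CMT-U309, at 53.0% against 75.3%. Each line was on a slide of its own, so line and slide cannot be told apart. Epithelial markers were found for 6 of 10 symbols, and EPCAM, KRT14 and CLDN3 were positive in all 12 channels. CDH1 and CLDN4 were positive in all 4 channels of CMT-U27 and in 2 of 4 of P114. In CMT-U309, CDH1 was positive in 2 of 4 channels and CLDN4 in 0. KRT19 gave 50377 to 80139 in CMT-U27, 632 to 1039 in P114 and 20.1 to 33.4 in CMT-U309. Of the mesenchymal list 7 of 8 were found. COL1A1 and COL3A1 were positive in 1 of 4 channels of CMT-U27 and in all channels of the other lines. Myeloid and leukocyte markers were found for 12 of 14 symbols. SPI1, ITGAM and LYZ were positive in 0 of 12 channels, and CD68 and S100A8 were in all 12. The summed signal of the myeloid list ranged from 1474 to 13626 in co-culture channels and from 1534 to 8050 in monoculture channels. S100A8 alone gave 6116 to 11667 in CMT-U27. The markers positive in all 4 channels of CMT-U27 were higher in co-culture on both its arrays and of no other line. Their log2 ratios there on the Cy5 and Cy3 arrays were 0.89 and 0.82 (S100A8), 0.84 and 0.76 (S100A9) and 0.36 and 0.36 (CD68). TYROBP and MPO, each positive in 2 of 4 channels of CMT-U27, were lower on both its arrays. Their log2 ratios were -1.50 and -1.12 (TYROBP) and -0.16 and -0.95 (MPO), so the myeloid markers did not move together in that line. The cause was not tested. None of the markers in these lists passed the thresholds between the conditions.

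A gene counted as detected in a line where a probe was positive in both channels of co-culture RNA or both of monoculture RNA. By that rule P114 had 22 detected genes, CMT-U27 had 25 and CMT-U309 had 28, and 29 of 47 were detected in at least 1 line. Of the receptors, 5, 9 and 10 of 21 were detected in the 3 lines in the same order, and of the ligands, 17, 16 and 18 of 26. The brightest probes of 16, 22 and 15 members, or 34.0%, 46.8% and 31.9%, were positive in all 4 channels of the line, below the 51.0%, 52.9% and 49.8% of all genes. The 20 genes detected in every line included the monocyte attractants CCL2, CCL7 and CCL8, CXCL16, which is both a membrane-bound scavenger receptor and a ligand, and its receptor CXCR6. They also included CCL27, an epithelial ligand of skin, and the receptor CCR10, which binds CCL27 and CCL28. CXCR4, CXCR7, CXCL12, CCRL2 and XCR1 were detected in CMT-U27 and CMT-U309 but not in P114. CCL24, an eosinophil attractant, was detected in P114 alone, CCL3 and CXCR2 in CMT-U309 alone, and CCL25 in P114 and CMT-U309.

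**Figure D1:**
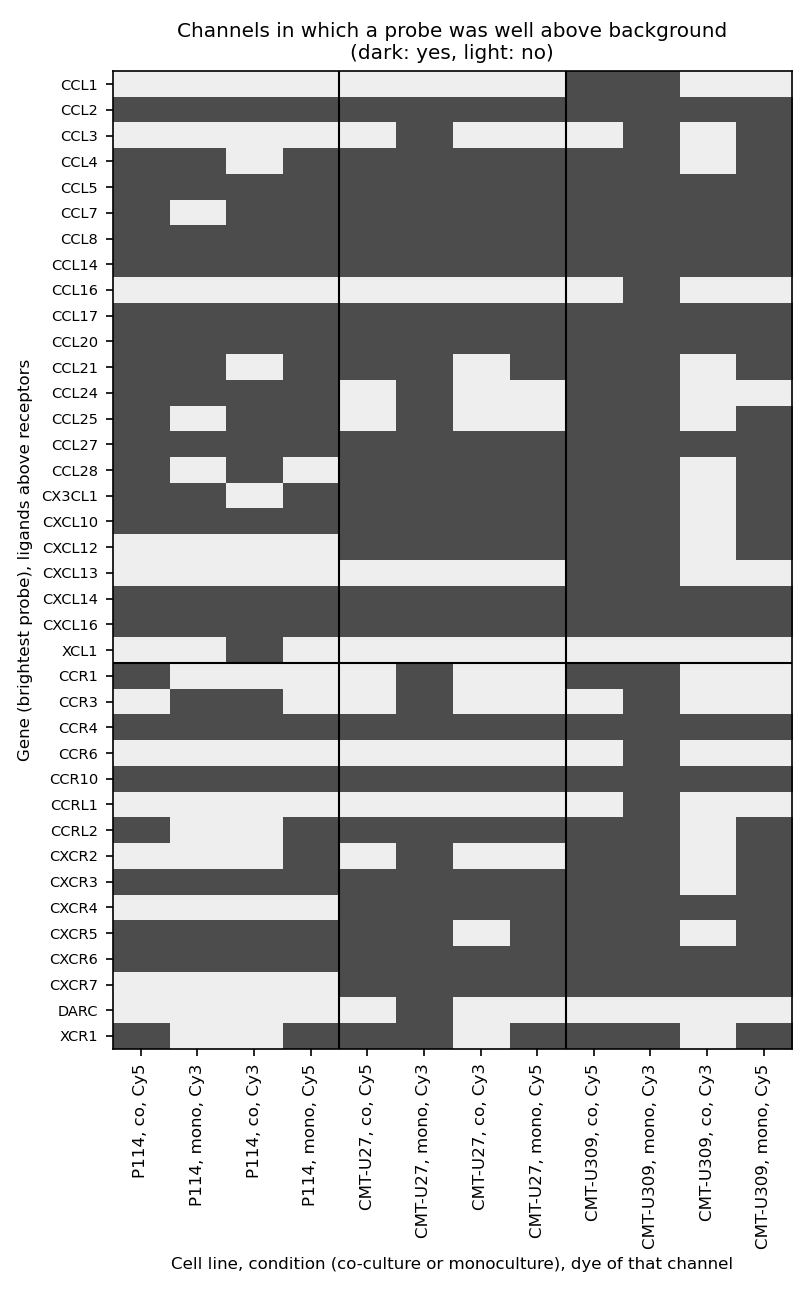
Each row is 1 of the 38 genes positive in at least 1 channel, ligands above receptors, and each column 1 of the 12 channels, named by cell line, condition and the dye of that channel. Dark cells are channels in which the brightest probe was positive (well above background), as in all 12 for 12 genes.

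The 18 genes detected in no line were 7 ligands and 11 receptors. Of the brightest probes 9 were positive in 0 of 12 channels, among them those of CCL13, CCL19, CCL26, CCR2, CCR7, CCR8, CCR9 and CX3CR1. CCL16, CCR6, CCRL1, DARC and XCL1 were positive in 1 channel, CCL1 and CXCL13 in 2, and CCR1 and CCR3 in 4, without both channels of 1 condition in a line. CCR7 was also the 1 gene removed as too dim. Thus CCR2, the receptor of CCL2, was below the limit in lines where that ligand was detected, and no level can be given for it.

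The levels of several members set one line apart from the others. They are given as the scaled processed signal, in arbitrary units, and are compared for 1 probe between lines, never between probes. In CMT-U27, 10 of 47 genes were higher in all 4 channels than in each of the 8 channels of the other lines, against 14% of all genes on the array. Genes lower in all 4 channels of CMT-U27 numbered 3, against 9.47% of all genes. For P114 the counts were 2 higher and 6 lower, against 6.34% and 4.35%, and for CMT-U309 they were 4 higher and 3 lower, against 6.41% and 8.78%. CMT-U27 was thus the line most often highest, among the members as among all genes. Of the genes counted, CCR6 (higher in P114, lower in CMT-U27) was positive in 1 channel only. There was 1 RNA sample per line and condition, so these differences have no test.

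CCL28, a mucosal epithelial ligand of CCR10, was far brighter in CMT-U27 than in the other lines. Its signal was 4558 to 6306 in the 4 channels of CMT-U27, 7.35 to 29.9 in P114 and 13.3 to 34.3 in CMT-U309. The geometric means differed 303-fold and 260-fold. The probe was, however, positive in only 2 of 4 channels of P114 (those of co-culture RNA) and 3 of 4 of CMT-U309. A second CCL28 probe, on the opposite strand, gave 18.3 to 35.6 in CMT-U27 and smaller differences. By it CMT-U27 lay at least 2.96-fold above P114, and 5.77-fold above CMT-U309 with 1 of 4 channels positive there. Bounds here and for CCL4 and CCL14 are formed as for CXCR4 below. CCL4, which attracts monocytes and T cells, had signals of 1370 to 1919 in CMT-U27, 28.0 to 58.2 in P114 and 20.8 to 24.9 in CMT-U309. By this probe CMT-U27 lay 39.3-fold and 71.4-fold above P114 and CMT-U309, and P114 lay above CMT-U309 without overlap. The other CCL4 probes gave smaller differences. The one on the opposite strand put CMT-U27 at least 4.46-fold above P114 and at least 7.78-fold above CMT-U309. The one on the same strand, positive in 1 of 4 channels of CMT-U27, gave at least 1.84-fold and at least 3.0048-fold. By these probes P114 and CMT-U309 overlapped, with no positive channel in either line.

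CCL20, the ligand of CCR6, had signals of 2190 to 2356 in CMT-U27 against 136 to 181 in P114 and 151 to 273 in CMT-U309. For CCL14 the signals were 2345 to 3275 in CMT-U27, 279 to 320 in P114 and 224 to 285 in CMT-U309. By the brightest probes both were about an order of magnitude higher in CMT-U27. The folds were 14.3 and 11.7 for CCL20 and 9.04 and 10.8 for CCL14. A second CCL14 probe gave 759 to 897 in CMT-U27 and larger differences. By that probe CMT-U27 lay at least 73.5-fold above P114, where no channel was positive. It lay 87.8-fold above CMT-U309, where 1 of 4 channels was positive. The size of the CCL14 difference thus depended on the probe. CXCL10, an interferon-induced ligand of CXCR3, gave 799 to 965 in CMT-U27, 97.0 to 170 in P114 and 31.0 to 52.3 in CMT-U309. By this probe the 3 lines did not overlap for CXCL10. The separate CXCL10 probe on the opposite strand was also highest in CMT-U27, at 99.6 to 196. By that probe, however, P114 (16.9 to 33.5) and CMT-U309 (12.1 to 24.9) overlapped. The order of the brightest CXCL10 probe held for CCL5, another attractant of T cells and monocytes, at 483 to 965, 284 to 479 and 102 to 157. CCRL2, an atypical chemokine receptor-like protein, was also highest in CMT-U27, at 67.9 to 85.4 against 8.22 to 33.4 in P114 and 12.1 to 37.9 in CMT-U309.

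The CXCL12 axis was at its lowest in P114. CXCR4 gave 331 to 446 in CMT-U27 and 70.4 to 104 in CMT-U309, and was positive in no channel of P114. After Aquantile normalization it was at least 32.1-fold higher in CMT-U27 and at least 8.45-fold higher in CMT-U309 than in P114, with P114 set to its own signal or to the lowest positive one of the channel, whichever was higher. CXCR7, the second receptor of CXCL12, had another order, with 869 to 993 in CMT-U309, 95.7 to 132 in CMT-U27 and no positive channel in P114. It was at least 94.1-fold higher in CMT-U309 and at least 10.0-fold higher in CMT-U27 than in P114. CMT-U27 was thus the higher of the pair for CXCR4, by 4.13-fold, and CMT-U309 for CXCR7, by 8.31-fold.

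The ligand CXCL12 itself gave 272 to 357 in CMT-U27 and 15.5 to 48.0 in CMT-U309, and was not positive in P114. The bounds over P114 were at least 28.3-fold for CMT-U27 and at least 3.12-fold for CMT-U309, where 3 of 4 channels were positive. A second CXCL12 probe was positive in 5 of 12 channels and also gave its highest signals in CMT-U27, at 37.2 to 70.1.

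P114 was also lowest for the neighbouring monocyte attractants of chromosome 9. CCL2 gave 16569 to 22982 in P114, 43916 to 59090 in CMT-U27 and 45568 to 52669 in CMT-U309. A second CCL2 probe, which the files place on the other strand, was positive in all 12 channels, at 99.6 to 193 in P114, 217 to 354 in CMT-U27 and 207 to 342 in CMT-U309. CCL8 gave 1440 to 2084 in P114, 3062 to 5381 in CMT-U27 and 5250 to 7414 in CMT-U309. CMT-U27 and CMT-U309 overlapped for CCL2 and, over a narrow range, for CCL8, while P114 overlapped neither. CCL7 gave 27.1 to 42.7 in P114, 276 to 386 in CMT-U27 and 146 to 245 in CMT-U309, so that the 3 lines were separate. P114 stood above the others for CCL24, at 185 to 256 against 5.86 to 13.9 in CMT-U27 and 11.5 to 19.3 in CMT-U309, where 1 and 2 of 4 channels were positive.

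CMT-U309 was the highest line for CCL17, CXCL14, CXCR7 and CCR10. CCL17, a ligand of CCR4, gave 378 to 535 in CMT-U309, 179 to 247 in P114 and 27.6 to 49.0 in CMT-U27 and thus was lowest in CMT-U27, unlike CXCL10. CXCL14, an epithelial and stromal chemokine, gave 211 to 277 in CMT-U309, 96.0 to 148 in P114 and 93.6 to 151 in CMT-U27, and its overlapping second probe had the same highest line. CCR10 gave 1167 to 1603 in CMT-U309, 821 to 944 in P114 and 611 to 1004 in CMT-U27. CXCL16 did not separate the lines, at 5718 to 7559, 6012 to 8357 and 6266 to 8521 in P114, CMT-U27 and CMT-U309. CCL27 behaved likewise, at 270 to 420, 228 to 340 and 312 to 390 in the same order. For CCR4 the ranges were 63.8 to 88.7, 59.2 to 76.1 and 85.2 to 107, so only CMT-U27 and CMT-U309 were separate.

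**Figure D2:**
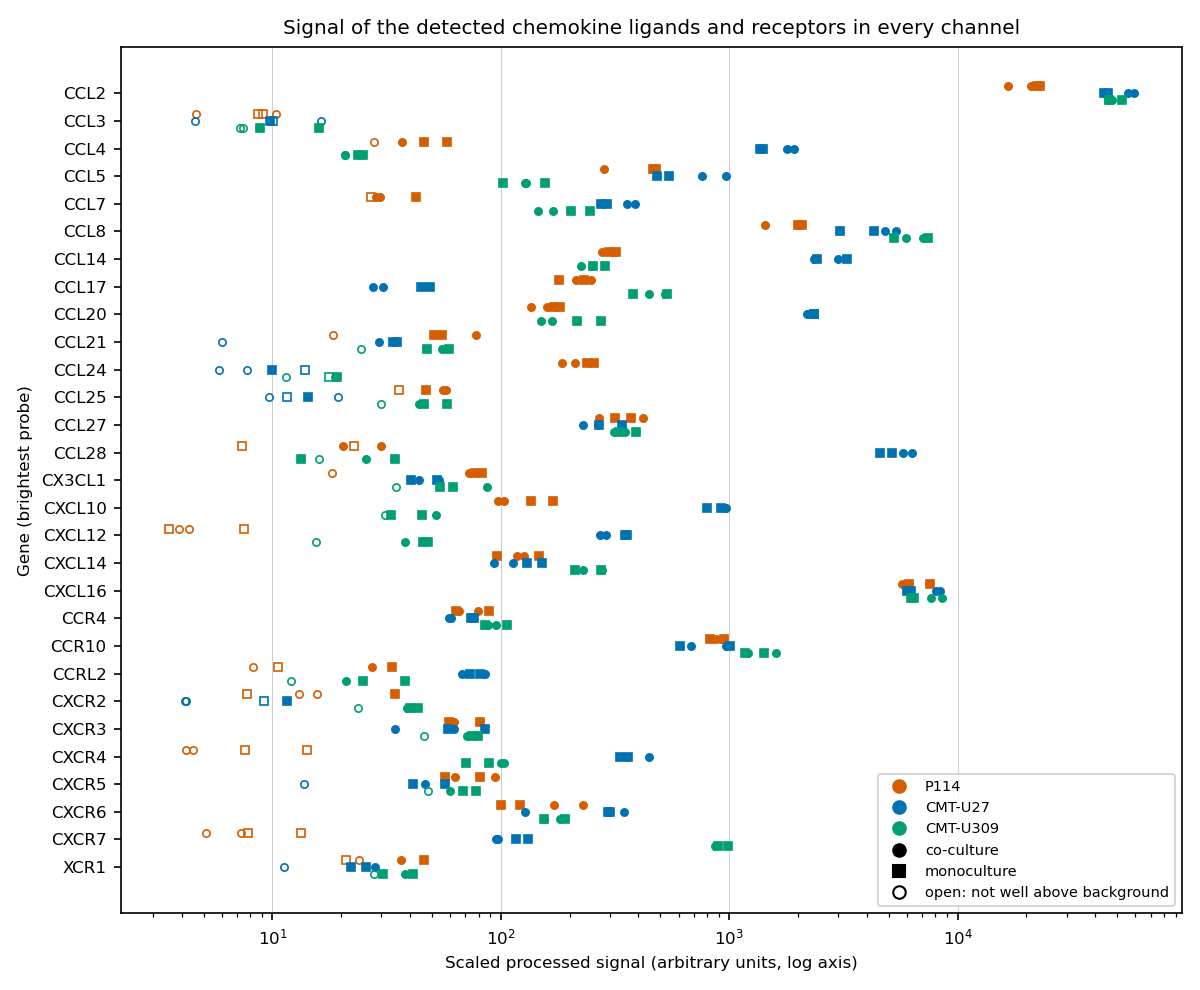
Scaled processed signal, on a log axis in arbitrary units, of the 29 genes detected in at least 1 line, with 1 point per channel, coloured by cell line, circles for co-culture and squares for monoculture, and open points where the probe was not well above background. CCL28 lies at 4558 to 6306 in CMT-U27 and at 34.3 or less in the other lines, and the CXCR4, CXCR7 and CXCL12 points of P114 are all open.

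The main comparison was co-culture over monoculture in the 3 lines together. A probe was called where limma's unadjusted p was under 0.05 and the fold change over 2, the thresholds of the study's methods. Of 58 member probes tested, 2 were called higher in co-culture, against 1.03% of all 40883 probes, and 0 were called lower, against 0.191%. None passed an adjusted p of 0.05, as was so for 0% of all probes, and 6 member probes had an unadjusted p under 0.05, against 9.94%. Through the brightest probes, 46 genes had a median log2 ratio of -0.05, with a range from -0.80 to 1.11, against a median of 0.00 over all genes. Without P114, 6 members were called higher, and without CMT-U27 or CMT-U309, 0 and 1. The shares of all probes called in these smaller fits are not given here, so their counts are not read as a result about the members.

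Neither probe called higher was measured in both conditions. CCL26, an eosinophil attractant next to CCL24, was positive in 0 of 12 channels, so no fold is given (adjusted p = 0.499 in limma). XCL1, a T-cell chemokine, was positive in 1 channel of co-culture RNA, from P114, and in no monoculture channel. With 5 of 6 co-culture channels not positive, no fold is given for it either (adjusted p = 0.499 in limma). Its log2 ratios on the Cy5 arrays of P114, CMT-U27 and CMT-U309 were -1.33, 1.15 and -1.66. On the Cy3 arrays they were 3.08, 2.68 and 2.56. The sign for P114 and CMT-U309 thus turned with the dye. The part of the dye in this result was not tested.

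The other probes with an unadjusted p under 0.05 pointed to lower values in co-culture without reaching the fold. They belonged to CCL21 (mean log2 ratio -0.80 ± 0.24, SE, n = 3 lines), CXCL12 (-0.53 ± 0.22), CXCR7 (-0.40 ± 0.18) and the overlapping second probe of CXCL14 (-0.38 ± 0.17), each with an adjusted p of 0.499 in limma. These values were smaller under other settings, with -0.07 for CCL21, -0.09 for CXCL12 and -0.13 for CXCR7 by normexp and loess, and -0.09 for CCL21 and -0.15 for CXCL12 by the median over the probes of the gene. CCL21, a lymph node ligand of CCR7, had log2 ratios of 0.60, -0.20 and 0.21 on the Cy5 arrays of P114, CMT-U27 and CMT-U309, and of -1.58, -2.55 and -1.29 on the Cy3 arrays. The co-culture channel of its probe was not positive on any Cy3 array, and the RefSeq probe of CCL21, on the other strand, was positive in 0 of 12 channels. The values of CCL21 and its detection in every line therefore rest on a probe that may not read the mRNA of CCL21. CXCR7 was lower on all 6 arrays, at -0.10 and -1.38 in P114, where it was below the limit, -0.44 and -0.28 in CMT-U27 and -0.18 and -0.04 in CMT-U309. CXCL12 was lower on both arrays of CMT-U27 (-0.39 and -0.27) and of CMT-U309 (-0.26 and -1.63), and its second probe was higher on both arrays of CMT-U27 (0.85 and 0.38), so the 2 probes disagreed. The second CXCL14 probe gave -0.66 and -0.34 in P114, -0.21 and -0.81 in CMT-U27 and 0.04 and -0.32 in CMT-U309, while the brightest gave 0.30 and -0.22, -0.69 and -0.21, and -0.26 and 0.39. In each pair of values the Cy5 array stands first, here and in what follows.

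Line by line, the ligands differed in direction. Among genes positive in all 4 channels of a line, 9 of 22 members were higher on both arrays of CMT-U27 and 8 were lower, against 31.2% and 32.9% of all such genes. In P114, 1 of 16 was higher and 7 were lower, against 24.4% and 18.5%. In CMT-U309, 2 of 15 were higher and 6 were lower, against 31.6% and 23.9%. For P114, CMT-U27 and CMT-U309 the median log2 ratio of the 46 genes was -0.24, 0.08 and -0.01, against 0.01, -0.01 and 0.00 over all genes. Lower members thus outnumbered higher ones in P114 and CMT-U309 and were about as many in CMT-U27, and no test is attached to these counts.

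**Figure D3:**
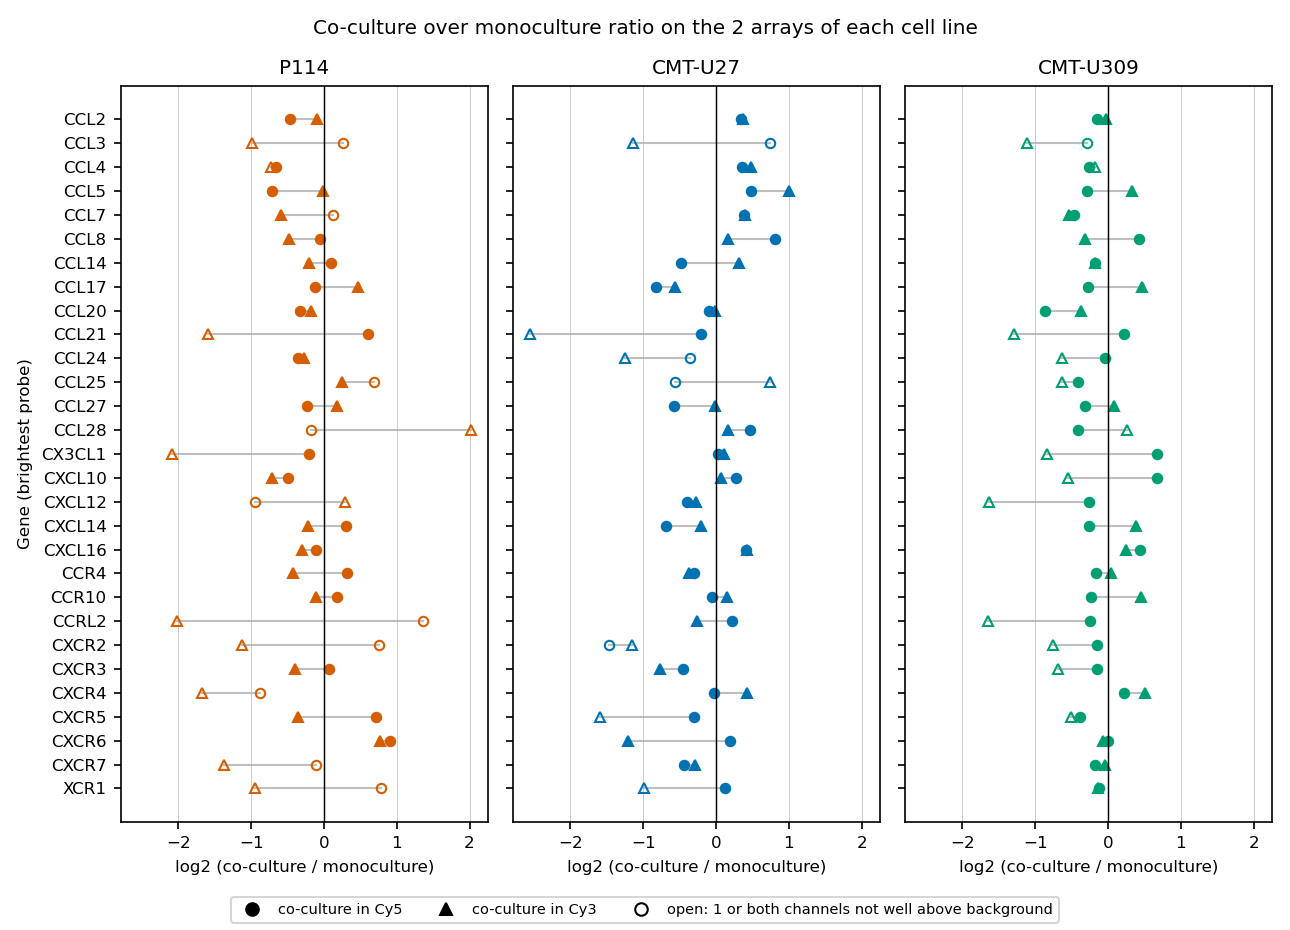
Log2 ratio of co-culture over monoculture on the 2 arrays of each cell line for the 29 genes detected in at least 1 line, circles for the Cy5 array and triangles for the Cy3 array, open where 1 or both channels were not positive. The 2 arrays lie close for CXCL16 and CCL2 in CMT-U27 and far apart for CCL21, at -0.20 and -2.55.

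The inflammatory CC ligands CCL2, CCL7, CCL8, CCL4 and CCL5 were higher in co-culture on both arrays of CMT-U27 and of no other line. CCL2 gave log2 ratios of 0.34 and 0.37 in CMT-U27, -0.47 and -0.09 in P114 and -0.14 and -0.02 in CMT-U309. Over the lines its mean was -0.00 ± 0.14 (SE, n = 3; limma adjusted p = 0.996). Its second probe did not have the same sign on both arrays of CMT-U27, at -0.71 and 0.50. CCL7 gave 0.38 and 0.40 in CMT-U27 and -0.47 and -0.53 in CMT-U309, while P114 was at 0.12 and -0.58. CCL8 gave 0.81 and 0.17 in CMT-U27, -0.06 and -0.47 in P114 and 0.43 and -0.32 in CMT-U309. These 3 neighbours on chromosome 9 thus shared their sign in CMT-U27.

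In the second cluster of that chromosome, CCL4 gave 0.35 and 0.49 in CMT-U27, -0.66 and -0.72 in P114 and -0.26 and -0.18 in CMT-U309. On the Cy3 arrays of P114 and CMT-U309 its co-culture channel was not positive. CCL5 gave 0.47 and 1.00 in CMT-U27, -0.71 and -0.01 in P114 and -0.28 and 0.33 in CMT-U309. For CCL14, in the same cluster, the brightest probe gave -0.48 and 0.31 in CMT-U27, 0.10 and -0.20 in P114 and -0.18 and -0.18 in CMT-U309. Its second probe, positive in all 4 channels of CMT-U27 and in 1 channel elsewhere, gave 0.15 and 0.24 in CMT-U27, so the probes disagreed there. CCL3 was positive in 3 channels, all of monoculture RNA, and no fold is given for it.

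Among the CXC and CX3C ligands, CXCL10 gave 0.27 and 0.07 in CMT-U27, -0.49 and -0.72 in P114 and 0.67 and -0.55 in CMT-U309. Of its other probes, the one that does not overlap the brightest and lies on the opposite strand had neither pattern, at -0.98 and 0.20 in CMT-U27 and 0.25 and -0.11 in P114. CXCL16 gave -0.11 and -0.31 in P114, against 0.41 and 0.43 in CMT-U27 and 0.44 and 0.25 in CMT-U309. CXCL16 was thus higher on all 4 arrays of the carcinoma CMT-U27 and the spindle cell line and lower on both of P114 (mean 0.19 ± 0.14, SE, n = 3 lines; limma adjusted p = 0.612). CX3CL1, a membrane-bound ligand of CX3CR1, gave 0.03 and 0.11 in CMT-U27, -0.20 and -2.08 in P114 and 0.68 and -0.83 in CMT-U309, again with no positive co-culture channel on the Cy3 arrays of P114 and CMT-U309.

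Of the epithelial and lymphoid CC ligands, CCL20 was lower on all 6 arrays, at -0.33 and -0.18 in P114, -0.10 and -0.02 in CMT-U27 and -0.86 and -0.36 in CMT-U309. Its mean was -0.31 ± 0.14 (SE, n = 3 lines) with an adjusted p of 0.499 in limma, so the difference did not pass. The brightest probe of CCL24 was likewise lower on all 6, at -0.36 and -0.28 in P114, -0.36 and -1.25 in CMT-U27 and -0.04 and -0.63 in CMT-U309, and P114 was the only line with all 4 channels positive. Its second probe gave 0.03 and -0.60 in P114, where alone it was positive, and the mean over lines went from -0.49 to -0.18 by the median over both probes. By normexp and loess the means were -0.16 for CCL20 and -0.09 for CCL24. CCL17 gave -0.83 and -0.56 in CMT-U27, and the sign differed between arrays in P114 (-0.12 and 0.47) and CMT-U309 (-0.27 and 0.47). CCL28 gave 0.47 and 0.16 in CMT-U27, where it was bright, -0.17 and 2.02 in P114, where neither monoculture channel was positive, and -0.42 and 0.26 in CMT-U309. CCL27 gave -0.24 and 0.18, -0.58 and -0.01, and -0.32 and 0.08 in P114, CMT-U27 and CMT-U309. CCL25, a thymic and intestinal ligand of CCR9, gave 0.68 and 0.25, -0.56 and 0.75, and -0.41 and -0.63 in the same order, with 1 of 4 channels positive in CMT-U27. Apart from CCL20 and the brightest probe of CCL24, none of these ligands had 1 sign on all 6 arrays.

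Among the receptors, CXCR6, the receptor of CXCL16, gave 0.91 and 0.78 in P114, 0.19 and -1.20 in CMT-U27 and -0.00 and -0.06 in CMT-U309. It was the only member higher on both arrays of P114 among the 16 positive in its 4 channels. CXCR4 gave 0.22 and 0.51 in CMT-U309 and -0.02 and 0.43 in CMT-U27, and -0.87 and -1.67 in P114, where it was below the limit. CXCR3, the receptor of CXCL10, gave -0.45 and -0.77 in CMT-U27, 0.07 and -0.40 in P114 and -0.15 and -0.69 in CMT-U309 (mean -0.40 ± 0.19, SE, n = 3 lines; limma adjusted p = 0.501), and its mean was -0.07 by normexp and loess. CCR4 gave -0.29 and -0.36 in CMT-U27, 0.32 and -0.43 in P114 and -0.17 and 0.04 in CMT-U309. CCR10 gave 0.18 and -0.11, -0.05 and 0.16, and -0.24 and 0.46 in P114, CMT-U27 and CMT-U309, with opposite signs on the 2 arrays of each line.

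CXCR5, the receptor of the B-cell chemokine CXCL13, gave 0.72 and -0.36 in P114, -0.29 and -1.59 in CMT-U27 and -0.38 and -0.51 in CMT-U309. CCRL2 gave 1.36 and -2.02 in P114, 0.22 and -0.26 in CMT-U27 and -0.24 and -1.65 in CMT-U309. For XCR1, the receptor of XCL1, the values were 0.79 and -0.95, 0.13 and -0.98, and -0.13 and -0.14. For CXCR2, a receptor of neutrophil attractants, they were 0.76 and -1.13, -1.47 and -1.15, and -0.16 and -0.75. CXCR2 was, however, positive in only 1 of 4 channels of P114 and 1 of 4 of CMT-U27. CCRL2 and XCR1 were positive in 2 of 4 channels of P114. Ratios there rest in part on signals below the limit. In CXCR5, CCRL2, XCR1 and CXCR2 the Cy3 array of P114 was the lower, by over 1 on the log2 scale, and the co-culture channel on the Cy3 array of CMT-U309 was not positive. The part of the dye was not tested.

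In all, 7 members had 1 sign on both arrays of a line and the opposite sign on both arrays of another, with all 8 channels positive. CCL2, CCL5, CCL8, CXCL10 and CXCL16 were higher in CMT-U27 and lower in P114, which makes 5 of 14 members against 7.68% of all genes. For CXCL10 and CCL2 this held for the brightest probe but not for the separate probe on the opposite strand. The reverse, higher in P114 and lower in CMT-U27, was found in 0 members against 9.88%. CCL2 and CCL7 were higher in CMT-U27 and lower in CMT-U309, 2 of 15 against 1.71%, and 0 had the reverse, against 3.06%. CXCL16 was higher in CMT-U309 and lower in P114, 1 of 12 against 7.85%, and CXCR6 was higher in P114 and lower in CMT-U309, 1 of 12 against 6.99%. All of the ligands with opposite signs between P114 and CMT-U27 were thus turned the same way by their brightest probes. The difference between lines was not tested, since each line had 1 RNA sample per condition.

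**Figure D4:**
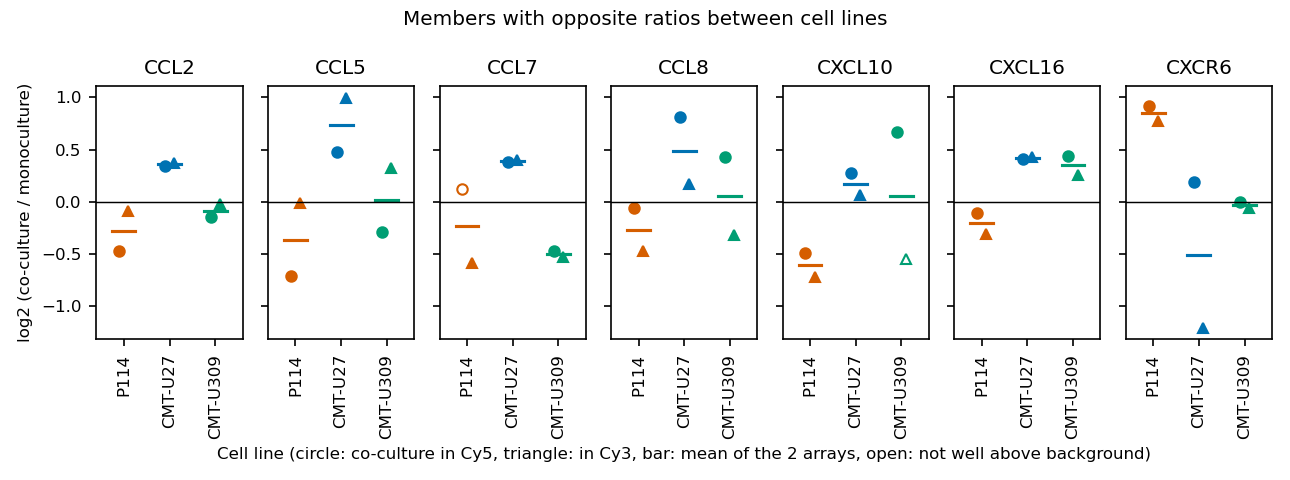
Log2 ratio of co-culture over monoculture for the members with opposite signs between lines, with 1 panel per gene, circles for Cy5 arrays, triangles for Cy3 arrays, open points where a channel was not positive and bars for the mean of the 2 arrays of a line. CCL2 lies at 0.34 and 0.37 in CMT-U27 and at -0.47 and -0.09 in P114, and CXCR6 at 0.91 and 0.78 in P114.

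Genes that act below the receptors were taken from a list of 101 symbols of chemokine signaling, such as G protein subunits, kinases and NF-κB subunits. Of these 87 were on the array by name and 86 were tested, and 63 were positive in all 12 channels. None was called higher or lower, and 14, or 16.3%, had an unadjusted p under 0.05 in limma, with 0 after adjustment. The share over all 40883 probes was 9.94%. That share counts every probe, dim ones included, while the list counts the brightest probe of each gene, so the shares are of unlike sets. Their median log2 ratio was 0.03. The list included IL8, a neutrophil attractant now named CXCL8 that the symbol rule did not take. It gave signals of 34387 to 37025 in P114, 898 to 1195 in CMT-U27 and 15675 to 28702 in CMT-U309, the reverse of the order of CCL4 and CCL28 for CMT-U27. Its log2 ratios were -0.78 and -0.55 in CMT-U309, -0.07 and 0.11 in P114 and -0.02 and 0.41 in CMT-U27, with a mean of -0.15 ± 0.16 (SE, n = 3 lines; limma adjusted p = 0.722). PPBP, a platelet chemokine, was positive in 0 of 12 channels, and no probe was found by the names PF4 and CXCL8.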

How the data were processed

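Total RNA of 3 cell lines in co-culture and monoculture was compared on 6 two-colour arrays of 2 per line with the dyes exchanged. The authors deposited the scanner output, with a processed signal intensity per dye, which Feature Extraction 10.10.1.1 (10.7.3.1 per the labels) had background-subtracted, adjusted between dyes and set to surrogate values where low. A second table that the authors deposited holds log10 ratios and equals the scanner ratios turned to co-culture over monoculture within 4.997e-06. All channels were brought to 1 median, control spots and outlier-flagged spots were dropped, probes that never exceeded an intensity of 10 were left out, and log2 ratios were averaged first over spots and next over the dyes. Limma 3.58.1 in R 4.3.3 (lmFit, eBayes with trend) tested the 3 line means against 0, with Benjamini-Hochberg adjustment over 40883 probes. The SE values and p-values rest on the spread between 3 cell lines, which eBayes moderated toward that of probes of like intensity. An SE given here is thus not that of the 3 line values alone. For CCL2 the SD between lines was 0.33 beside an SE of 0.14, and for CCR10 0.04 beside 0.11. The number of arrays limits the precision. The script was tested on simulated data.

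The members, lists and tests were chosen with earlier results of these data known. All 47 genes enter the counts, and 1 of them is not reported here by name. Values on each array are given for genes whose brightest probe was well above background on both arrays of a line in 1 condition, and other probes where they were so in all 12 channels or as described. A bound uses Aquantile levels and the lowest signal well above background. The labels' array number marks the dye. Across lines, arrays of the same number correlated between -0.22 and 0.40 (Cy5) and between 0.47 and 0.61 (Cy3), so a fit with the dye as a replicate block was an alternative. Other alternatives were no scaling, normexp (offset 50) with loess, no filter, the log10 ratios as deposited, detected probes only, no trend, the methods' t-test, outliers kept, the median over probes, each line or number left out, and another detection flag. Aquantile levels for line counts and normexp ratios for counts per line were added after seeing the data. The methods give a shorter co-culture than the labels, whose 72 h is used. The reference table (assembly UU_Cfam_GSD_1.0, used for names only) held 42 of 47 symbols and 1 more as an older name. Coordinates are on canFam2, and exons and UTRs were not analysed here. Python 3.11.15, pandas 2.3.3 and matplotlib 3.10.9 were used.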

Additional observations from a re-analysis of the deposited data

Results flagged for a closer look

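In these results all 4 arrays of a pair of cell lines split by line, with both arrays of one line higher in co-culture and both of the other lower. The difference was not tested, since a line has 1 RNA sample per condition. As mean log2 ratio of CMT-U27 minus that of P114, it was 0.64 for CCL2, 1.099 for CCL5, 0.76 for CCL8, 0.77 for CXCL10 and 0.63 for CXCL16. The separate CXCL10 probe on the opposite strand ran the other way, with means of -0.39 in CMT-U27 and 0.07 in P114. CMT-U27 minus CMT-U309 gave 0.44 for CCL2 and 0.89 for CCL7. The second CCL2 probe, positive in all 12 channels, did not show this split. Its means were -0.11 in CMT-U27, -0.52 in P114 and -0.16 in CMT-U309. CMT-U309 minus P114 gave 0.55 for CXCL16. P114 minus CMT-U309 gave 0.88 for CXCR6, whose ratio on 1 array of CMT-U309 was -0.00.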

How the results depend on the processing

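The count of members called higher in co-culture was 2, and 2 with the 6 arrays and the dye as a replicate block. It was 0 with normexp and loess, 0 with only probes well above background, 0 by the methods' t-test, 1 with the deposited log10 ratios and 1 with the 6 arrays and no dye term. Leaving out a cell line gave 0 (without CMT-U27) to 6 (without P114), and leaving out an array number 0 to 7. The count called lower was 0 throughout except 1 to 4 with an array number left out. In chemokine signaling genes the count called higher was 0, except 2 without P114 and 4 without number 1 (the Cy5 arrays), and the count called lower was 0 except 1 without number 2 (the Cy3 arrays). The shares of all probes called under these other settings are not given here. The counts are therefore not read as a result about the members or the list. The median of the members moved by less than the spread between lines. The mean log2 ratio of CCL2 turned positive with normexp (0.11) and ranged from -0.18 (without CMT-U27) to 0.14 (without P114) with a line or number left out, being also positive without CMT-U309 (0.038) and without number 1 (0.088). CXCL14 ranged from -0.22 to 0.051 (without CMT-U27) with a line or number left out, and was -0.38 by the median over its probes. Without number 2, XCL1 turned negative and CCL21 positive, with ranges from -0.61 to 2.77 and from -1.81 to 0.21. The cause was not tested. Line counts and counts per line stayed within 1.5 times under the added alternatives. Detection by the positive-and-significant flag gave 30, 36 and 39 genes in P114, CMT-U27 and CMT-U309. For the 18 genes detected in no line, the signal over background allowed at most a bound.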
